A study of Mus musculus with 33 samples.

Results

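Elastic fibres let skin recoil after stretch. They are built on microfibrils of fibrillin, on which soluble elastin is laid down and then cross-linked by lysyl oxidases, and dermal fibroblasts are the main source of these proteins in skin. The 10 genes described here cover that sequence. Eln encodes elastin, Fbn1 encodes the fibrillin that forms the microfibril core, and Mfap2, Mfap4 and Mfap5 encode microfibril-associated proteins. Fbln1, Fbln2 and Fbln5 encode fibulins, Emilin1 encodes a glycoprotein found where elastin meets the microfibril, and Lox encodes the copper-dependent enzyme that cross-links elastin and collagen. A gene was measured through probe sets annotated with its symbol and no other, and its main probe set was the one with the highest mean log2 signal over all 33 arrays. Fbn1 had no such probe set in the annotation used here, so 9 of 10 genes were measured, by 19 of the 45037 probe sets. Of these 19 probe sets, 15 passed the filter on dim signals, among them all 9 main ones.

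The arrays held RNA from upper-mid dorsal skin of C57BL/6 mice, 1 mouse per array, taken through the hair cycle, in which follicles pass from growth (anagen) through regression (catagen) to rest (telogen). The natural cycle had 23 arrays: early anagen at P23 (2 males) and P25 (1 male, 1 female), mid anagen at P27 (2 males, 1 female), late anagen at P29 (1 male, 2 females) and P34 (1 female), early catagen at P37 (2 males, 1 female) and P39 (1 male, 2 females), mid catagen at P41 (2 males, 1 female) and telogen at P44 (2 males, 1 female), where P is the postnatal day. The other 10 arrays followed a new cycle set off by wax and rosin depilation of resting skin in mice at least 50 days old, with 2 females each at D3, D5, D8, D12 and D17 (days after depilation). No mouse carried a mutation, and no undepilated skin of that older age was analysed here. Every depilation array was from a female, so that age, sex and depilation cannot be told apart between the cycles. Each depilation day also differs in phase from P44, so phase cannot be told apart from these when the 2 are compared. Some sample labels name early anagen for P41, P44 and all depilation days, against the design text, so time points were used by day with the phases of the design text. The Y-linked gene Eif2s3y read at least 1525 on the 13 male arrays and at most 45.2 on the 20 female arrays.

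Signals are MAS5 intensities, which are linear and have no unit, and which cannot be compared between probe sets. Differences are log2 differences with values under 34.6 set to that floor, and limma tests were adjusted over all 26988 kept probe sets by the Benjamini-Hochberg method with a threshold of 0.05. The genes were chosen by their place in the elastic fibre, with their signals on these arrays already known, and their main probe sets by mean signal. Their course after depilation is part of the rule that defines this description, so it is given as values without a test. Whole skin was hybridised, so fewer cells of a type and less RNA per cell cannot be told apart.

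All 9 genes had their highest natural time point mean at P23 or P25, their lowest between P34 and P39, and a higher mean again at P44. Averaged over phases Mfap5 was the exception on its main probe set, with a mean signal of 2485 in telogen and 2465 in early anagen. On its second probe set, 1449082_at, early anagen was the higher, with 1188 against 844.6. The highest time point mean was at P25 for Eln, Mfap4, Mfap5, Fbln2, Emilin1 and Lox and at P23 for Mfap2, Fbln1 and Fbln5. The lowest was at P34, which is 1 mouse, for 8 genes and at P39 for Emilin1. In every gene highest at P25, the highest early anagen signal was that of 1 array, the P25 female. Among those genes the P25 male lay above both P23 arrays for Mfap5 and Fbln2 alone. An F test over the 6 phases, without P34, called 9 of 9 genes, beside 72.6% of all probe sets tested, so that the count itself is close to the background. The adjusted p ranged from 2.31e-08 for Fbln2 to 0.0103 for Lox.

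**Figure D1:**
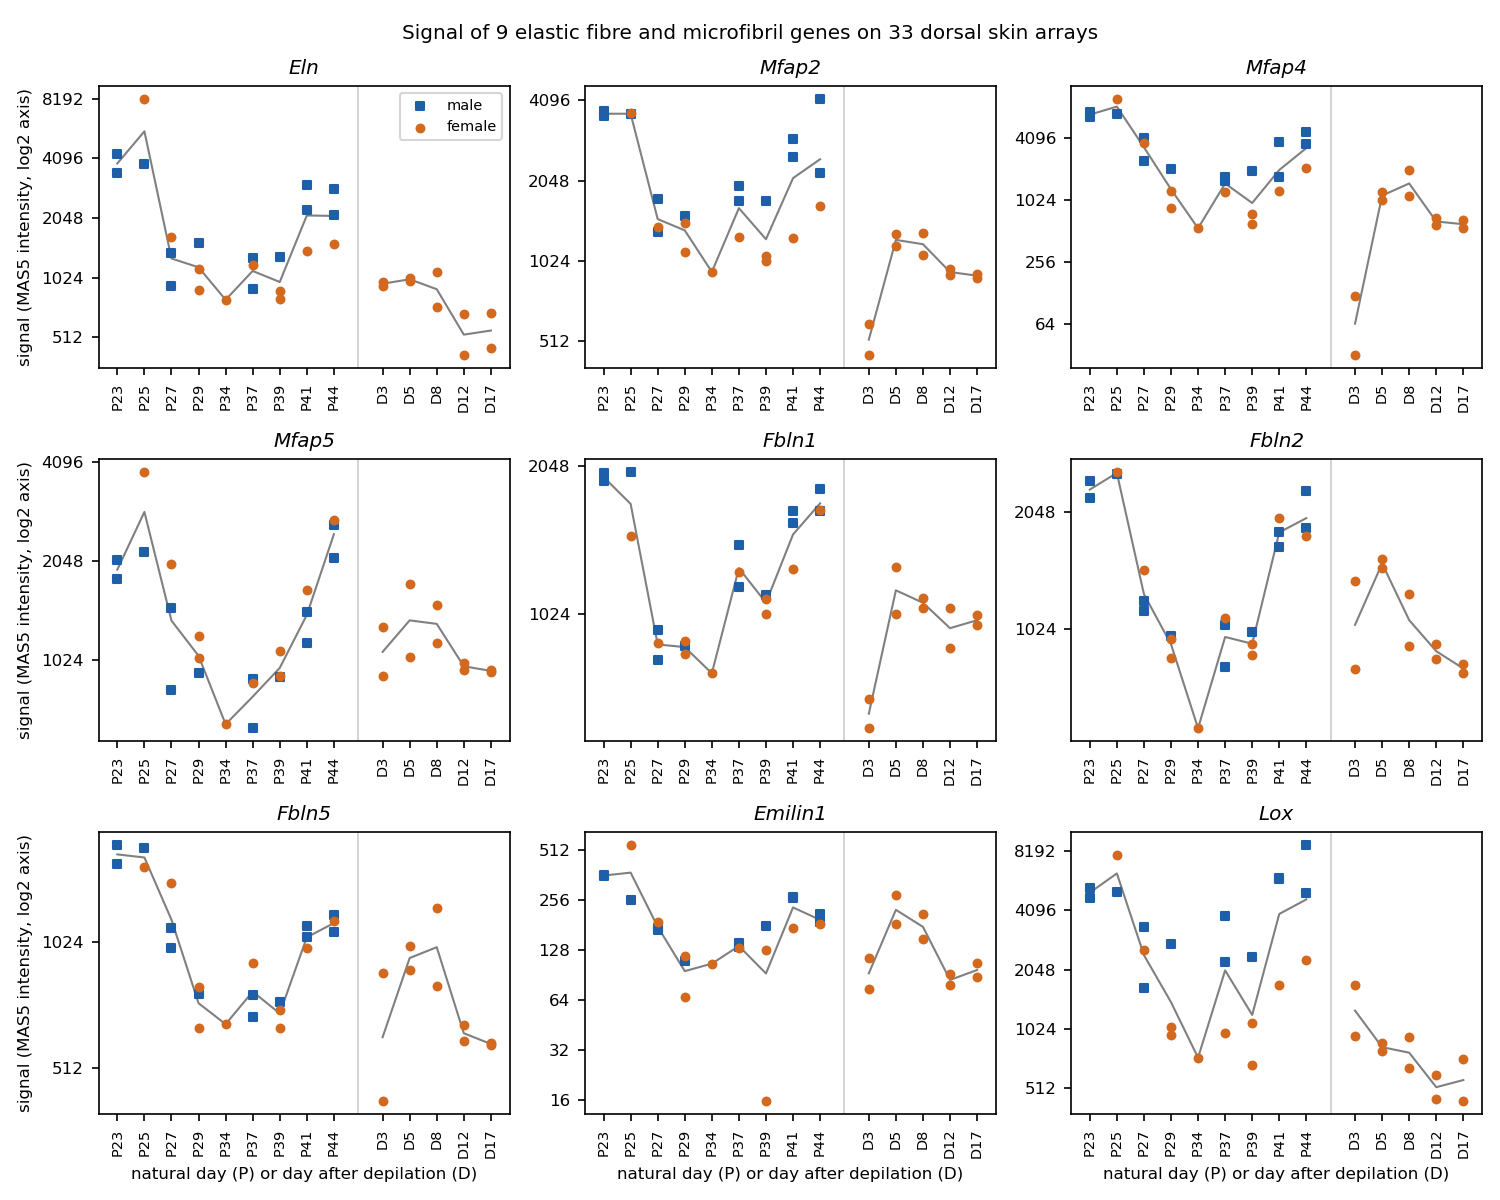
Each panel plots the MAS5 signal of 1 gene (log2 axis) against time point, natural cycle left of the grey line and depilation cycle right of it, with 1 point per array and a line through the time point means (signals under 34.6 enter the mean at that floor). The 9 genes share a high start at P23 and P25, a trough around P34 and higher signals again at P44, and both D3 arrays lie below all 3 P44 arrays in every panel.

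Elastin had the largest fall of the 9 genes into mid anagen. Eln (main probe set 1420855_at) read 3472 and 4299 at P23, 8188 and 3845 at P25, and 1371, 932.3 and 1641 at P27. The P25 female stood apart, and all 4 early anagen arrays lay above all 3 mid anagen arrays. The fall was 1.86 ± 0.33 (SE) on the log2 scale, or 3.64-fold (adjusted p = 0.0117). Eln then stayed low, between 792.1 and 1540.3 over P29, P34, P37 and P39. At P41 it read 1392, 2992 and 2257 and at P44 1510, 2882 and 2126. It rose 2.03-fold from early to mid catagen (log2 difference 1.02 ± 0.25, adjusted p = 0.013), and at P44 it was still 2.22-fold below P23 and P25, with the groups not overlapping (1.15 ± 0.34, adjusted p = 0.0444). That last call was lost on leaving out any of 6 of its 7 arrays, all but P25 replicate 1, with adjusted p of 0.0529 to 0.126, and the rise into mid catagen without P41 replicate 2 or 3, with 0.0504 to 0.0631. The second Eln probe set, 1420854_at, differed the same way but passed none of these 3 tests, with adjusted p of 0.278, 0.0926 and 0.429.

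The microfibril-associated genes differed in how far they fell. Mfap4 (1424010_at), whose product binds elastin and fibrillin, ranged from 9818 in the P25 female to 541.9 at P34 in the natural cycle. It read 6505 and 7297 at P23, 4086, 2444 and 3681 at P27, and 2054, 1255 and 844.4 at P29. The levels stepped down at each of these points, and only the first step passed the test, with a fall of 1.18 ± 0.22 into mid anagen (adjusted p = 0.0137). From mid to late anagen the difference was −1.36 ± 0.35 (adjusted p = 0.17). At P44 Mfap4 read 2101, 3554 and 4651, below every early anagen array. Mfap2 (1417359_at), a glycoprotein subunit of the microfibril, fell by 1.31 ± 0.13 into mid anagen (adjusted p = 0.00242), the smallest adjusted p of the 9 genes at that step. Its 4 early anagen arrays lay within 3562 to 3726, and its 3 mid anagen arrays within 1319 to 1748. A second Mfap2 probe set, 1447833_x_at, did not follow the first (r = 0.286 over 33 arrays, signals from 79.3 to 562.4) and went the other way at that step, by 0.25 ± 0.42. For early anagen against telogen it differed by −1.16 ± 0.42 (adjusted p = 0.0802), where the main one differed by 0.57 ± 0.29 (0.184). Into mid catagen it differed by −0.36 ± 0.24 (0.272), against 0.57 ± 0.30 (0.169). Both were higher in telogen than in late anagen, without passing the test.

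Mfap5 (1418454_at), the other such glycoprotein, was the exception at the first step. It read 2067 and 1800 at P23, 3810 and 2182 at P25, and 1476, 833.7 and 2001 at P27, so the groups overlapped (difference −0.80 ± 0.35, adjusted p = 0.145). With sex as a covariate the same step passed, at −0.88 (adjusted p = 0.023). At P44 it was back among the early anagen values, with 2725, 2634 and 2096 (difference −0.07 ± 0.26, adjusted p = 0.874). It rose from early to mid catagen by 0.68 ± 0.17 (adjusted p = 0.0155). From mid catagen to telogen it rose by a further 0.81 ± 0.19 that missed the threshold (adjusted p = 0.0589) although the groups did not overlap. The second Mfap5 probe set, 1449082_at, followed the main one (r = 0.903). For early anagen against telogen it differed the other way, by 0.43 ± 0.26, without passing the test (adjusted p = 0.256).

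The fibulins fell by 0.51 to 1.04 on the log2 scale into mid anagen. Fbln5 (1416164_at), which binds soluble elastin and brings it to the microfibril, read 1584 and 1752 at P23, 1557 and 1722 at P25, and 1111, 991.2 and 1421 at P27. These groups did not overlap, and the fall was 0.51 ± 0.15 (adjusted p = 0.0487). Leaving out any of 6 of the 7 arrays of that comparison raised its adjusted p above the threshold, to between 0.0628 and 0.167. At P44 Fbln5 read 1150, 1189 and 1083, below all 4 early anagen arrays (early anagen higher by 0.53 ± 0.10, adjusted p = 0.0103). Fbln2 (1423407_a_at) fell by 0.97 ± 0.13 into mid anagen (adjusted p = 0.00543) and rose by 0.92 ± 0.12 into mid catagen (adjusted p = 0.000741). It read 815.7 to 1090 on the 6 early catagen arrays and 1981, 1819 and 1661 at P41. Fbln1 (1451119_a_at) fell by 1.04 ± 0.14 into mid anagen (adjusted p = 0.00589), to 952, 826.2 and 894.7 at P27. It was back at 1667, 1844 and 1660 in telogen, overlapping early anagen (difference 0.09 ± 0.14, adjusted p = 0.675). Of the other Fbln1 probe sets, 1422540_at followed the main one (r = 0.757) and fell by 1.24 ± 0.20 into mid anagen (adjusted p = 0.00879), while the dim 1439688_at did not (r = 0.193; difference 0.31 ± 0.20).

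The 3 fibulin promoters are shown because these 3 genes of 1 family share their phases of high and low signal. Each is the 250 bases before the most upstream start that RefSeq lists (GRCm38.p6), written 5′ to 3′ on the strand of the gene, with the motifs found in capitals. The positions are chr15:85205699-85205948 on the plus strand for Fbln1, chr6:91212514-91212763 on the plus strand for Fbln2 and chr12:101819120-101819369 on the minus strand for Fbln5.
Fbln1: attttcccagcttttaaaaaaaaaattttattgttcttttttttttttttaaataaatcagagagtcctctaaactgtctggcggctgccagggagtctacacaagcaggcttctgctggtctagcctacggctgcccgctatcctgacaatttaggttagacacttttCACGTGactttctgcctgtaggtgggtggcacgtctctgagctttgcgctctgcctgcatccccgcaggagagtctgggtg
Fbln2: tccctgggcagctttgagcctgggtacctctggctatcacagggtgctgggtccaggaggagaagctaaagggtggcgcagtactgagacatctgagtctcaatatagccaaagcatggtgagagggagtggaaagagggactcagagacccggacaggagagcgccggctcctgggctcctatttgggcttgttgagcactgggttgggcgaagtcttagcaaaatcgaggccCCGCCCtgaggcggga
Fbln5: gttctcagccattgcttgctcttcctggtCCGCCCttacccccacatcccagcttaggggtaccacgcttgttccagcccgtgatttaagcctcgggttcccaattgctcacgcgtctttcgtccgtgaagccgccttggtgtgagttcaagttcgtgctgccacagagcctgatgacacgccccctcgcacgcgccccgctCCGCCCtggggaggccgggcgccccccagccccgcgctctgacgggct

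Motifs were searched by their letters on both strands, and no matches overlapped. The TATA box was searched as TATAAA, found in 12.4% of 32851 promoter windows of this length. For the GC box the letters were GGGCGG, present in 32.7% of windows. For the E-box, to which the clock proteins and many other factors can bind, they were CACGTG, which 6.02% of windows held. The Fbln1 window held an E-box 81 bases before the start and the other 2 held none. The Fbln2 and Fbln5 windows held a GC box on the opposite strand, Fbln2 at 16 and Fbln5 at 48 and 221 bases before the start, and that of Fbln1 held none. No window shown held the TATA letters. Promoters were matched for 6 of 10 genes, namely Mfap2, Fbn1, Fbln1, Fbln2, Fbln5 and Emilin1. Of their most upstream windows, that of Fbn1 held a GC box and those of Mfap2 and Emilin1 held none of the 3 motifs. Windows of starts further downstream differed. That of a second Mfap2 start held GC boxes at 51 and 7 bases before it. That of a second Fbln1 start held a GC box on the opposite strand at 11 and an E-box at 140.

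Emilin1 (1416414_at) was dim, from 15.6 to 544.3 over all arrays. It read 353 and 362.4 at P23, 544.3 and 254.7 at P25, and 173, 168.4 and 186.6 at P27. The early anagen arrays lay above the mid anagen ones, a fall of 1.05 ± 0.24 (adjusted p = 0.0234), and above those of P44 (0.92 ± 0.24, adjusted p = 0.0301), which read 182.3, 211.2 and 187.8. The difference from telogen was lost without any 1 of the P23 or P44 arrays (adjusted p of 0.0636 to 0.0889), and the fall into mid anagen without P23 replicate 1 or P27 replicate 1 or 2 (0.0554 to 0.0874). It was higher in telogen than in late anagen by 1.02 ± 0.24 (adjusted p = 0.0131). Lox (1416121_at) read 5342 and 4754 at P23, 7865 and 5052 at P25, and 3366, 1660 and 2564 at P27. It fell by 1.21 ± 0.27 into mid anagen (adjusted p = 0.0232), a call lost without P23 replicate 1 or P27 replicate 2 (0.054 to 0.073). Its later values spread widely within a time point, as at P44 with 2295, 8763 and 5013 and at P41 with 1711, 5994 and 5899. The main Lox probe set passed no later test between phases, and its difference of telogen from late anagen, 1.73 ± 0.59, had an adjusted p of 0.0501. The second Lox probe set, 1448228_at, which followed the main one (r = 0.978), passed that test, at 2.13 ± 0.65 (adjusted p = 0.0352).

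Counted over the 9 genes, the step into mid anagen had most calls. There 8 of 9 fell and none rose, beside 9.27% of probe sets tested that fell, and the median difference was −1.05 against −0.01 for all probe sets. Without P23 replicate 1, or without P27 replicate 2, 5 of 9 fell, where 2809 and 1580 of 26988 probe sets were called in either direction. From mid to late anagen 0 of 9 passed the test, as did 0% of all probe sets. Before adjustment 4 of the genes and 5323 probe sets had p under 0.05, and a plain t-test called 0 of 9. From late anagen to early catagen 0 of 9 passed (0% of all), with p under 0.05 before adjustment for 1 gene and 3596 probe sets, and the t-test called 0 of 9. Into mid catagen 4 of 9 rose, namely Eln, Fbln2, Fbln5 and Mfap5, beside 17.4% of probe sets that rose. Without P41 replicate 2 the count was 2, where 5653 of 26988 probe sets were called in either direction. With sex as a covariate it was 6, adding Mfap2 and Lox, where 9260 probe sets were called. From mid catagen to telogen 0 of 9 passed the limma test, beside 5.88% of probe sets in either direction, with p under 0.05 before adjustment for 1 gene (Mfap5) and 6788 probe sets, and the t-test called 0 of 9.

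Over the trough as a whole, telogen was higher than late anagen for 6 of 9 genes, Mfap4, Mfap5, Fbln1, Fbln2, Fbln5 and Emilin1, beside 23% of probe sets. Eln, Mfap2 and Lox missed the threshold with adjusted p of 0.0526, 0.0755 and 0.0501. With P34 added to late anagen all 9 passed, beside 13486 of 26988 probe sets in either direction. Without P44 replicate 1, the female, 9 passed too, beside 11205 probe sets, where the main fit called 12041. Early anagen was higher than telogen for 4 of 9, Eln, Mfap4, Fbln5 and Emilin1, beside 13.5% of probe sets. This count fell to 2 without either P23 array or without any 1 of the 3 P44 arrays, and to 0 with P25 alone as early anagen. All 4 early anagen arrays lay above all 19 other natural arrays for 3 of 9 genes, Eln, Mfap4 and Fbln5, beside 2.99% of probe sets. The comparisons of early anagen with mid anagen and with telogen share the early anagen arrays, and those with telogen share the P44 arrays.

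**Figure D2:**
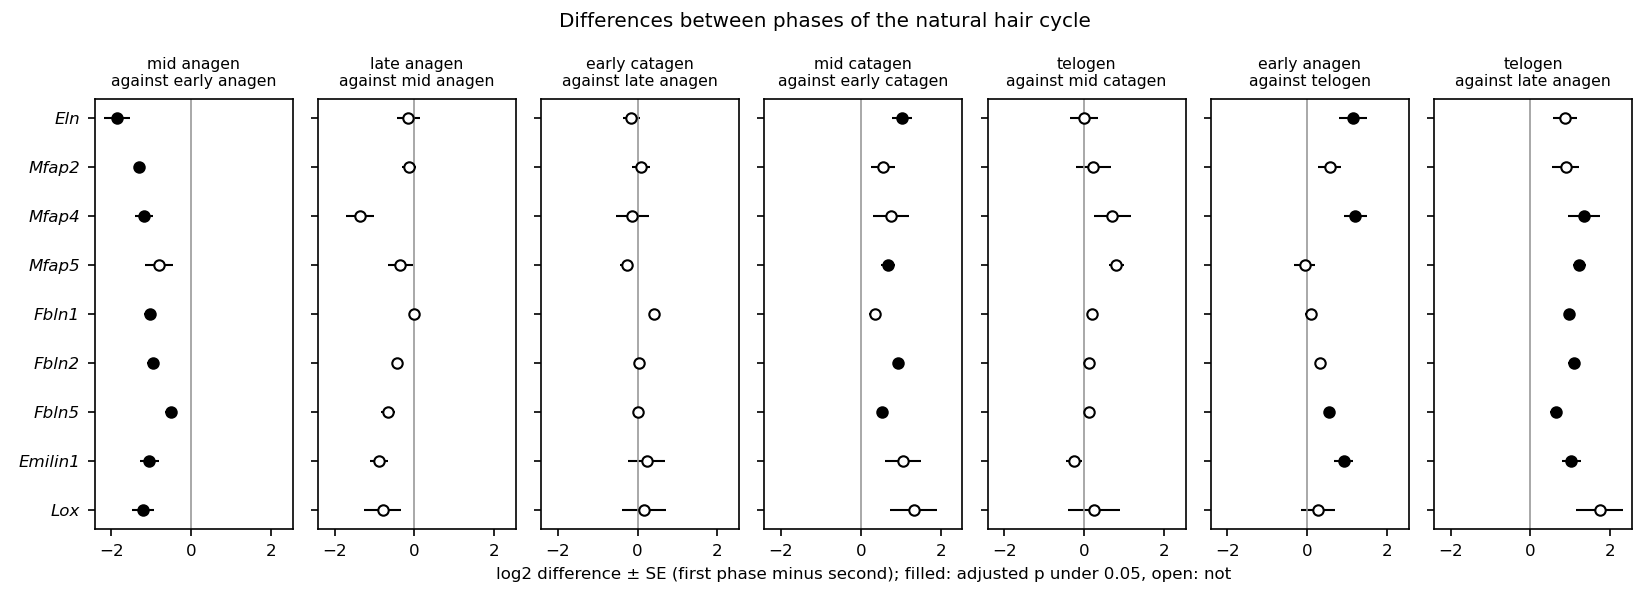
Log2 differences (x axis, first phase minus second, with the standard error of the limma fit) are plotted for each of the 9 genes in each of 7 comparisons of phases, filled where the adjusted p was under 0.05. All 9 differences lie left of 0 at the step into mid anagen and right of 0 at the step into mid catagen and in telogen against late anagen.

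The genes that the course of the 9 followed most closely were found by correlating each of 12858 other genes with the mean centred course over the 14 time points. P3h3 (r = 0.995), Kdelr3 (0.986), Serpinh1 (0.986), Sec24d (0.986) and Ikbip (0.986) were nearest. Between the 9 genes themselves r over time point means ran from 0.671 to 0.957, with a median of 0.823 over 36 pairs. These points share their arrays and, with most of the skin's transcripts, the hair cycle, so the values describe likeness of course and no more.

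Other genes of the elastic fibre were read from a list of 36, of which 31 were measured. Into mid anagen 14 of 31 fell, beside the 9.27% of all probe sets given above, and 2 rose. Fbn2, a second fibrillin, fell by 1.31 ± 0.16 (adjusted p = 0.00446), Ltbp1, a latent TGF-beta binding protein that sits on microfibrils, by 1.08 ± 0.14 (adjusted p = 0.00535) and Mfap3l by 0.73 ± 0.13 (adjusted p = 0.0106). Those that rose were Ltbp3, by 0.64 ± 0.13 (adjusted p = 0.0189), and Atp7a, the copper pump that supplies lysyl oxidases, by 0.67 ± 0.15 (adjusted p = 0.0238). Into mid catagen 16 of 31 rose (17.4% of all probe sets), led by Efemp1, a fibulin (0.89 ± 0.13, adjusted p = 0.00138), and Atp7a alone fell, by 0.53 ± 0.10 (adjusted p = 0.00404). Telogen was higher than late anagen for 18 of 31 (23% of all probe sets). Among them were Emilin2 (1.99 ± 0.14, adjusted p = 0.000183), Adamtsl4, a microfibril-binding protein (2.05 ± 0.15, adjusted p = 0.000207), and Loxl1, the lysyl oxidase of elastic fibres (1.74 ± 0.14, adjusted p = 0.000266). Atp7a was lower in telogen by 0.99 ± 0.11 (adjusted p = 0.000906). From mid catagen to telogen the 1 call was Ltbp4, which fell by 0.67 ± 0.13 (adjusted p = 0.0366).

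Between early anagen and telogen, both high for the 9 genes, 6 of 31 differed, beside 26.8% of all probe sets, so the list moved no more than the background. The list's median difference was −0.08, against −0.05 for all probe sets. Fbn2 was higher in early anagen by 3.69 ± 0.36 (adjusted p = 0.000871) and Vcan, a proteoglycan that binds fibrillin and marks the follicle's dermal papilla, by 2.28 ± 0.27 (adjusted p = 0.00185). The third, Itga8, was higher by 0.46 ± 0.12 (adjusted p = 0.0336). Adamtsl4, Mmrn2 and Itgb5 were lower, by 1.08, 0.86 and 0.63 in log2 (differences of −1.08 ± 0.14, −0.86 ± 0.18 and −0.63 ± 0.16, adjusted p of 0.00279, 0.0139 and 0.0243). Proteases that cut elastin, 7 of 10 measured, were on the telogen side: 6 of 7 were lower in early anagen than in telogen, beside 13.2% of all probe sets, and none higher, led by Prtn3 (−2.24 ± 0.29, adjusted p = 0.00253), Ctss (−1.67 ± 0.29, adjusted p = 0.00667) and Mmp9 (−0.95 ± 0.18, adjusted p = 0.00943). These 3 are made largely by leukocytes, and 6 of 9 leukocyte markers were lower in early anagen too, none higher. Lower as well, with none higher, were 5 of 9 skeletal muscle, 5 of 8 epidermis, 2 of 7 adipocyte and 1 of 8 endothelial markers. Fibroblast markers (1 of 16) and smooth muscle and pericyte markers (2 of 9) were lower as often as higher, and 6 of 10 hair markers were higher. The part of leukocytes or other cells in the protease differences was not tested.

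After depilation, given without a test, both D3 arrays lay below all 3 P44 arrays for 9 of 9 genes, where 31.2% of all probe sets did the same. The genes differed most in depth. Mfap4 read 31.8 and 119 at D3 against 2101, 3554 and 4651 at P44, a difference of −5.67 ± 0.53 or at least 50.8-fold, since the first D3 array is under the floor of 34.6 and was set to it. Mfap2 read 455.4 and 593.6 (4.73-fold below P44), Lox 945.1 and 1705 (3.67-fold) and Fbln1 601 and 689 (2.68-fold). The other 5 genes were 1.88-fold to 2.27-fold below P44, and the median of all probe sets differed by −0.08. These folds are against the P44 mean of 2 males and 1 female in telogen, while both D3 arrays are female and in early anagen. The P44 female alone read 2101 for Mfap4, 1640 for Mfap2, 2295 for Lox and 1667 for Fbln1.

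By D5 both arrays lay above both D3 arrays for 7 of 9 genes, beside 26.6% of all probe sets. Mfap4 read 1031 and 1230, which is at least 17.5-fold above D3, with the same D3 array at the floor, and still 2.90-fold below P44. Emilin1 read 182 and 271.6, on either side of its P44 arrays (difference 0.20 ± 0.44). Mfap2 (1169 and 1290), Fbln1 (1027 and 1279), Fbln2 (1470 and 1549) and Fbln5 (877.9 and 1006) were also above D3, while Eln (1021 and 989.6 against 979 and 931.2) was so by a difference of only 0.07 ± 0.40. Mfap5 overlapped, with 1048 and 1747 against 914.9 and 1288. Lox went the other way, with 871.2 and 787.1 at D5 below both D3 arrays (20.8% of all probe sets did so).

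Most of the genes were lower again at D12. Both D12 arrays lay below both D8 arrays for 8 of 9 genes (27.9% of all probe sets), the exception being Fbln2, and all D12 and D17 arrays lay below both D5 arrays for 8 of 9 (22.5%), the exception being Fbln1. At D17 Mfap4 read 650.9 and 541.3, Mfap2 887.5 and 916.9 and Fbln1 1020 and 973.4, and for these 3 genes both arrays were still above both D3 arrays (31.3% of all probe sets). Eln (678.6 and 452.5) and Lox (724 and 439) were below both D3 arrays at D17 (31.3%). Lox was 8.26-fold and Eln 3.79-fold below the P44 mean, which includes 2 males and 1 female, at D17. All 10 depilation arrays lay below all 3 P44 arrays for 7 of 9 genes, all but Fbln5 and Emilin1, beside 15.6% of all probe sets. Against the P44 female alone the count was also 7 of 9, beside 25.2%. Lox in that female read 2295, and the 10 depilation females ranged from 439 to 1705.

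**Figure D3:**
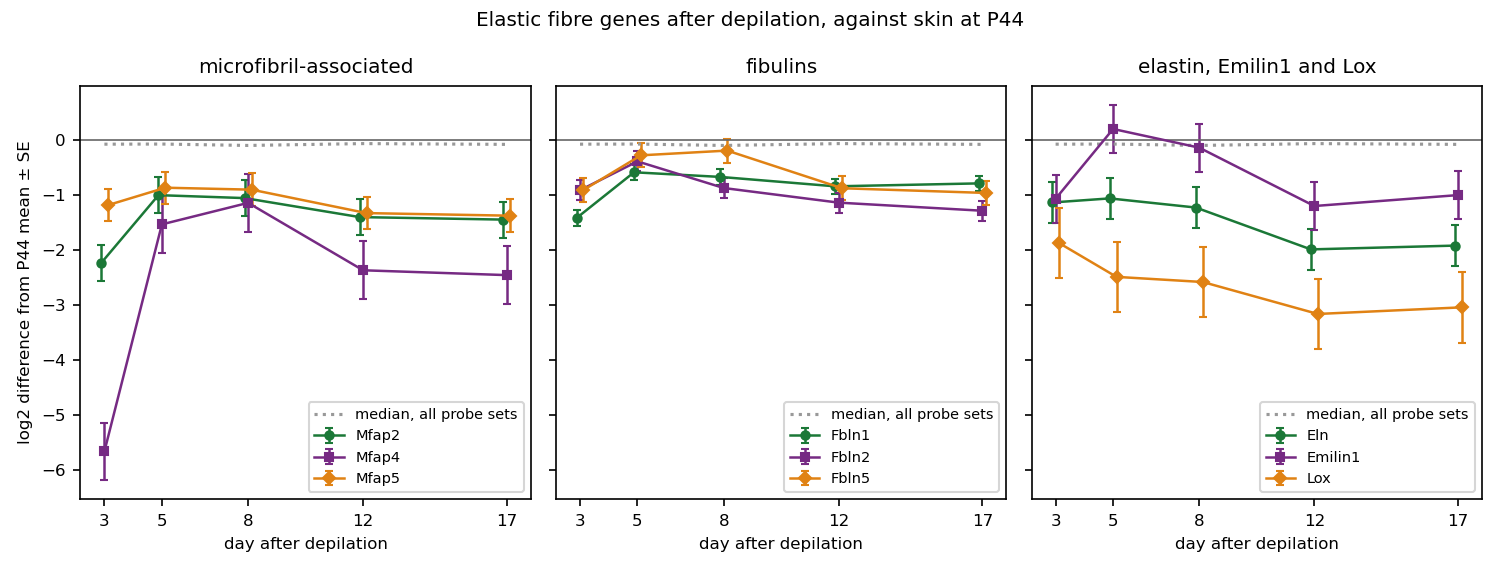
Log2 difference of each depilation time point from the P44 mean (y axis, with standard error from the fit of all 33 arrays) is plotted against days after depilation for the 9 genes in 3 groups, with the median of all kept probe sets dotted. Mfap4 falls to −5.67 at D3 and returns to −1.14 at D8, Emilin1 reaches 0.20 at D5 and Fbln5 −0.19 at D8, and Lox moves away from P44, reaching −3.17 at D12.

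Markers of skin cell types moved with these genes in part. The summed signal of 16 dermal fibroblast markers was 247983 to 318637 on the early anagen arrays, 169014 to 202958 in mid anagen and 96947 to 208042 on the P29 and P34 arrays. It was 188411 to 251171 in mid catagen, 246020 to 381618 at P44 and 97346 to 127672 at D3. Of the 16, 12 fell into mid anagen and none rose, 7 rose into mid catagen and none fell, and 12 were higher in telogen than in late anagen with none lower. Markers in other lists moved the same way in part. Telogen was higher than late anagen for 9 of 9 skeletal muscle, 8 of 9 leukocyte, 7 of 8 endothelial, 5 of 9 smooth muscle and pericyte, 4 of 8 epidermis and 2 of 7 adipocyte markers, beside 23% of all probe sets. It was lower for 2 smooth muscle and pericyte markers and 1 epidermis marker. Into mid catagen 7 of 9 skeletal muscle, 6 of 9 leukocyte, 6 of 8 endothelial, 4 of 9 smooth muscle and pericyte, 4 of 7 adipocyte and 0 of 8 epidermis markers rose, beside 17.4% of all probe sets. At that step 1 endothelial and 1 epidermis marker fell. Into mid anagen 4 of 9 skeletal muscle, 3 of 9 leukocyte, 3 of 8 endothelial, 3 of 9 smooth muscle and pericyte, 2 of 8 epidermis and 0 of 7 adipocyte markers fell, beside 9.27% of all probe sets, and 1 smooth muscle and pericyte marker rose. The most abundant fibroblast markers, Col3a1 and Col1a2, passed none of these tests, with differences into mid anagen of −0.33 ± 0.13 and −0.32 ± 0.14. After D3 the fibroblast sum was 141170 to 151096 at D5, above both D3 arrays, and 118066 to 145402 at D8. It was 101136 to 105927 at D12 and 100863 to 105865 at D17, below both D5 arrays, so it moved with the mean course of the 9 genes. Not all 9 rose from D3 to D5. Both D5 arrays lay above both D3 arrays for 7 of 9, beside 26.6% of all probe sets. Of these 7, Eln differed by only 0.07 ± 0.40, while Mfap5 overlapped and Lox was below. The summed signal of 10 hair shaft and inner root sheath markers ran the other way between P44 and the trough. It was 1674 to 5517 at P44 and 200583 to 217678 on the P29 and P34 arrays. On the early anagen arrays it was 26520.5 to 72337, above P44, as was the mean course of the 9 genes. At D3 it was 965.5 to 1105, so at D3 both the hair markers and the 9 genes were low. Sums of 9 skeletal muscle markers (260372 to 355369 at D3, 261136 to 295747 at P44), 8 epidermis markers (148423 to 158059, 137659 to 170384) and 7 adipocyte markers (61948 to 68827, 52223 to 66773) overlapped or were higher at D3, whereas that of 9 leukocyte markers was lower (13262 to 32934 against 50623 to 71775). The part of cell make-up in the values of the 9 genes was not tested.

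**Figure D4:**
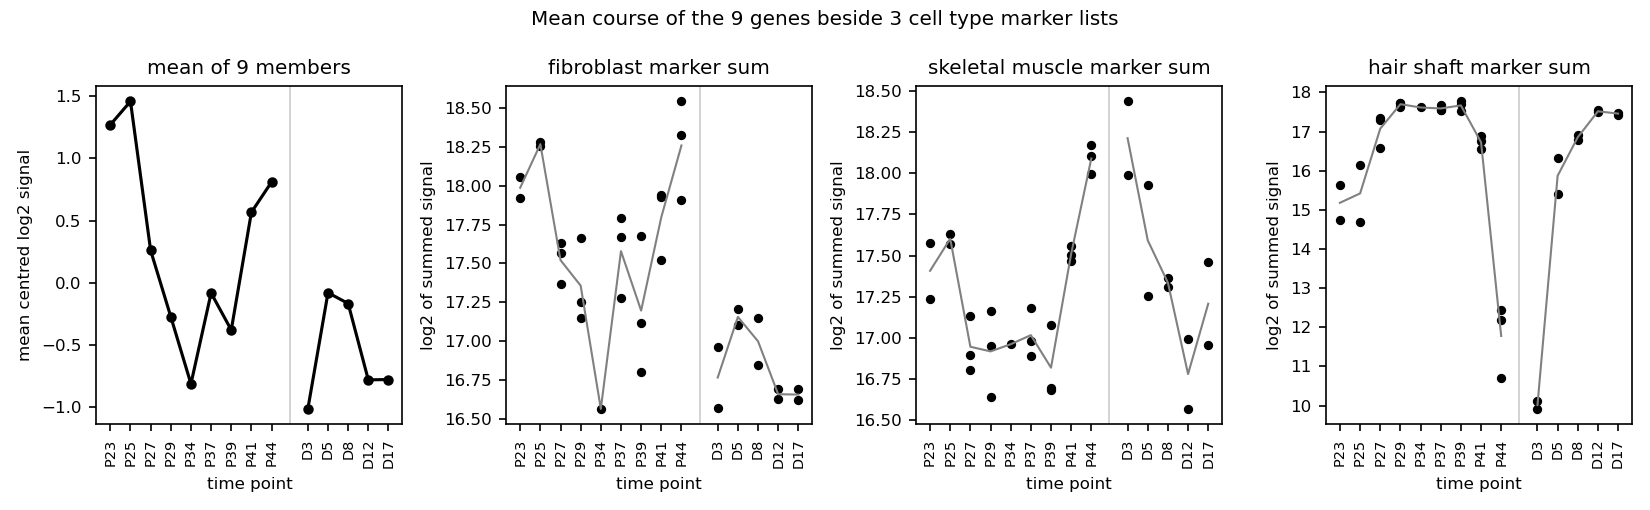
The mean centred log2 signal of the 9 genes at each time point (left) stands beside the log2 summed signal of fibroblast, skeletal muscle and hair shaft marker lists, with 1 point per array in the marker panels. The course of the 9 genes, from 1.46 at P25 to −0.81 at P34, 0.81 at P44 and −1.01 at D3, is low at D3 where fibroblast and hair markers are low and skeletal muscle markers are high.

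The spread of Lox within late time points lay along sex. This comparison was added after the values were seen. From P37 to P44, with 5 females and 7 males, Lox read 672.1 to 2295 in females (median 1099.8) and 2247 to 8763 in males (median 5013). The ranges overlap at their ends, and within each of the 4 time points every male was above every female. Males were higher by 1.59 ± 0.28, or 3.02-fold (adjusted p = 0.0121), and by 1.75 ± 0.30 on 1448228_at (adjusted p = 0.0118). Mfap2 read 1025 to 1640 in females and 1712 to 4144 in males, without overlap, and was higher in males by 0.81 ± 0.15 (adjusted p = 0.0189). On 1447833_x_at, the Mfap2 probe set that did not follow the main one, the difference was 0.32 ± 0.26 (adjusted p = 0.799). Mfap4 (0.98 ± 0.25, adjusted p = 0.131) and Emilin1 (0.55 ± 0.30, adjusted p = 0.64) had every male above every female at 4 of 4 time points without passing the test. With Lox and Mfap2 this order held for 4 of 9 genes, beside 2.44% of all probe sets. For the dim Emilin1 it held only narrowly at P37 (lowest male 132.4, female 131.1) and at P44 (187.8 and 182.3). In Mfap5 every male lay below every female at 3 of 4 late time points, at P39 only by 913.3 against 915.1, and at 3 of 3 from P25 to P29, as did 14.4% and 7.24% of all probe sets (difference over P25 to P29 −0.62 ± 0.19, adjusted p = 0.326).

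Thus 2 of 9 genes were higher in males from P37 to P44, beside 0.445% of all probe sets. The count depends on single arrays: it was 0 without P39 replicate 3, P41 replicate 1 or P44 replicate 1 and 1 without P37 replicate 1. From P25 to P29, with 4 arrays of each sex, 0 of 9 differed, beside 0.0667% of all probe sets. In that span 1 gene and 2576 probe sets had an unadjusted p under 0.05. For Lox, Mfap2 and Mfap4 the P29 male was already above both P29 females, with Lox at 2750 against at most 1051. At P27 the female lay between the 2 males for these genes, and at P25 the male was below the female. Over P25 to P44 0 of 9 passed, beside 0.5%, with 4 genes and 2828 probe sets at an unadjusted p under 0.05. Lox passed there without any 1 of 4 arrays, P25 replicate 1 or 2 and P27 replicate 2 or 3 (adjusted p of 0.0208 to 0.0392). Whether the sexes differed more late than early was tested directly and was not called for any of the 9 genes or for any probe set (0%). There 3 genes and 2122 probe sets had an unadjusted p under 0.05, and the Lox estimate was 1.28 ± 0.43 (adjusted p = 0.499). No other tool was run on the comparisons of the sexes. Fibroblast markers moved with sex as well. From P37 to P44 6 of 16 were higher in males and none lower, among them Sparc (0.90 ± 0.11, adjusted p = 0.000441), Col1a2 (0.48 ± 0.10, adjusted p = 0.0351) and Col3a1 (0.41 ± 0.09, adjusted p = 0.0423), and their part in the difference of Lox and Mfap2 was not tested. No gene of the other elastic fibre list differed, and of the elastin-cutting proteases Ctsk was higher in males, by 1.19 ± 0.24 (adjusted p = 0.0295).

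**Figure D5:**
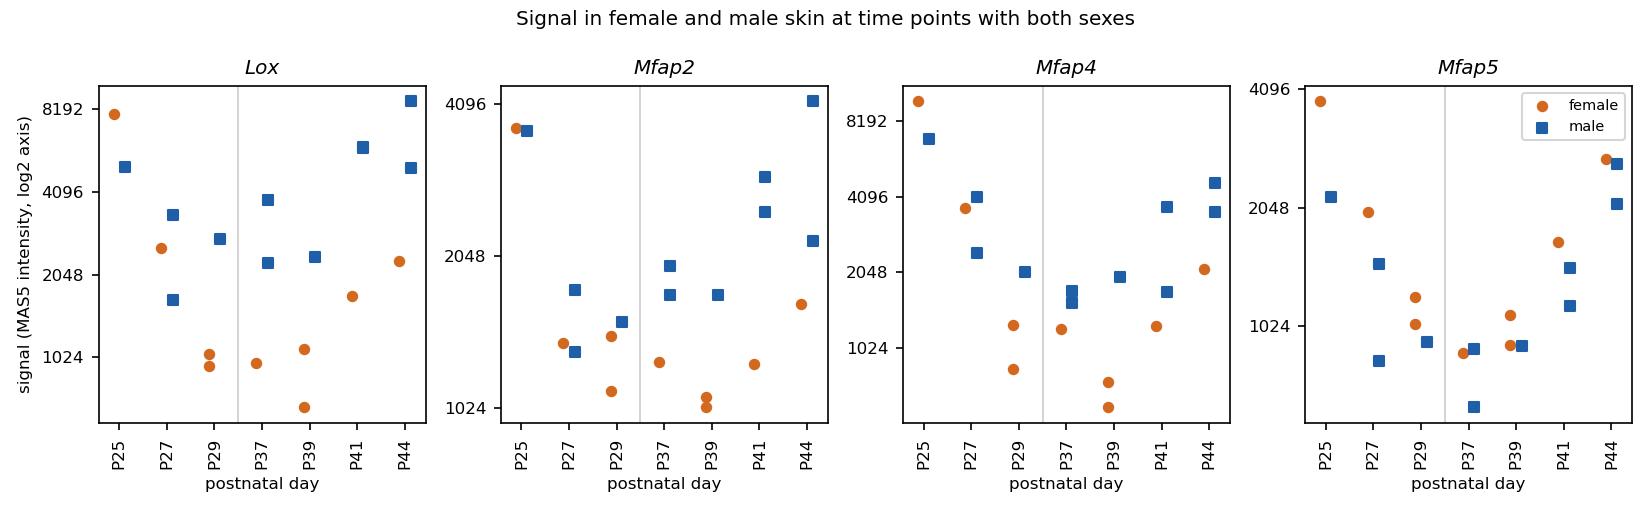
MAS5 signal (log2 axis) of Lox, Mfap2, Mfap4 and Mfap5 is plotted by postnatal day for each female and male array at the 7 natural time points that hold both sexes, with a grey line between P29 and P37. Right of the line every male is above every female of the same day for Lox, Mfap2 and Mfap4, and for Mfap5 every male is below at 3 of 4 days. Left of it the P29 male is also above the P29 females for Lox, Mfap2 and Mfap4, while at P25 the male is below the female.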

How the data were processed

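Total RNA from dorsal skin of 1 mouse per array was hybridised to Affymetrix Mouse Genome arrays. The authors summarised each array to linear intensity values with MAS5 (version not given in the sources used here), and the deposited intensity table of 45037 probe sets by 33 arrays was the starting point. Array mean signals ran from 720 to 811.1. Here intensities under the 25th percentile (34.6) were set to it, log2 was taken without further scaling, and 26988 probe sets above their array's median on at least 3 arrays were kept. Symbols came from the platform table: 77.6% of probe sets had 1 symbol, 932 several and 9160 none. Phases of the natural cycle were compared with limma 3.58.1 in R 4.3.3 on the arrays of each comparison, and p-values were adjusted by the Benjamini-Hochberg method over the 26988 probe sets. P34 (1 array) entered no test. Standard errors after depilation came from 1 fit with a mean per time point over 33 arrays. Sexes were compared within time points. Members and lists were chosen with earlier results of these data known. Genes outside the 9 were named by rule: of the related lists those past the test, at most 3 in each direction by smallest p, of the marker lists the most abundant, and the 5 nearest in course. Sparc was chosen after its values were seen. Replicate numbers did not pair arrays (correlation of deviations for same-numbered arrays −0.203 to 0.283). The tests were checked on simulated data. Alternatives were other floors, filters, quantile normalization, a joint fit, sex or replicate number as covariates, the methods' t-test and leaving out each array. That t-test stands for the study's one-way ANOVA between consecutive phases, which used transformed values and an unadjusted p, and was run here on the floored log2 intensities. The small number of arrays limits precision.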

Additional observations from a re-analysis of the deposited data

Results flagged for a closer look

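The P25 female (replicate 1) had the lowest Fbln1 signal of early anagen, 1479, against 1909 to 1993 on the other 3 arrays, a gap that takes most of the range of the 4. Chance flags about 1 in 20 groups in this way. The same array had the highest Eln, Mfap4, Mfap5, Fbln2, Emilin1 and Lox signals of early anagen. Emilin1 on P39 replicate 2, a female, read 15.6, against 126.7 to 177.5 on the other 5 early catagen arrays, and is under the floor.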

How the results depend on the processing

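Over all alternatives to the tests of single genes, 2210 values were counted as unchanged. Another 88 lost the threshold, 40 gained it and 2 reversed. The 2 counted as reversed, at the step into mid anagen, were a second Mfap2 probe set (0.25) and the dim Fbln1 probe set (0.31). A change of direction where neither value passed the threshold was counted as unchanged, and the F test has no direction. Among such changes was Mfap2 probe set 1447833_x_at in early anagen against telogen (−1.16, main probe set 0.57) and into mid catagen (−0.36, main 0.57). Others in early anagen against telogen were Fbln1 probe set 1422540_at (−0.12, main 0.09) and Mfap5 probe set 1449082_at (0.43, main −0.07). Counts of the 9 genes called moved by over 1.5 times as follows. For early anagen against telogen (4 called), the count was 1 with no filter or with the methods' t-test, 2 with the joint fit of all 33 arrays or P23 alone as early anagen, 0 with P25 alone, and 2 of the 7 genes that the strict filter left. For the step into mid anagen (8 called), it was 5 with no filter, the joint fit or P23 alone, 3 with the t-test and 2 with P25 alone. The joint fit called 7 in mid against early catagen (4 called). From mid catagen to telogen (0 called), the strict filter and sex as a covariate each called 1, Mfap5. At the study's own threshold, an unadjusted p under 0.01, the t-test called 1, 5, 0, 1, 4 and 0 of the 9 genes from early anagen against telogen through each step to telogen. It called 4 in telogen against late anagen. In the same order it called 20.5%, 14.8%, 3.94%, 3.71%, 27.1%, 9.55% and 29.9% of all probe sets, in either direction. The causes were not tested, except that with no filter p-values are adjusted over 45037 probe sets and that a single early anagen time point leaves 2 arrays there. Other floors and quantile normalization moved no count of the 9 genes by over 1.5 times.

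Counts over all probe sets moved by over 1.5 times too. Early anagen against telogen (7221 called) gave 4597 with P23 alone and 1768 with P25 alone. The step into mid anagen (5320) gave 3079 with no filter, 2524 with the t-test, 2232 with P23 alone and 801 with P25 alone. Telogen against mid catagen (1586) gave 2486 in the joint fit and 813 with the t-test. Late against mid anagen (0) gave 371 in the joint fit and at most 18 otherwise, and early catagen against late anagen (0) at most 29. Males against females gave 84 with no filter over P25 to P44 (135) and 1 with the strict filter over P25 to P29 (18). Leaving out 1 array gave 4271 to 7960 for early anagen against telogen, 1580 to 5867 into mid anagen, 5653 to 9654 into mid catagen (9534), 463 to 1369 for telogen against mid catagen, 44 to 177 for the sexes over P25 to P44, 15 to 146 over P25 to P29 and 71 to 176 over P37 to P44 (170), and the shares of all probe sets in the text move with these.

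With replicate number as a block, which does not pair these mice, early anagen against telogen gave 2 calls among the 9 genes and no other count of these moved by over 1.5 times. Over all probe sets the block gave 4703 there, 530 in telogen against mid catagen and 46 for the sexes over P25 to P44.

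Leaving out 1 array at a time gave 2 to 4 calls for early anagen against telogen, 5 to 8 into mid anagen, 2 to 6 into mid catagen and 5 to 9 for telogen against late anagen. For males against females it gave 0 to 2 calls over P37 to P44 and 0 to 1 over P25 to P44. The 6-phase test called 9 each time. After depilation, leaving out an array left 9 of 9 genes below P44 at D3 and 7 to 8 of 9 above D3 at D5.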
